A study of Mus musculus with 6 samples.

Results

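The SIBLING family (small integrin-binding ligand, N-linked glycoproteins) comprises Dspp, Dmp1, Ibsp, Mepe and Spp1, which encode secreted acidic phosphoproteins of dentin and bone. The 5 genes were chosen by name, and each matched 1 of the 20162 rows of the deposited normalized table (48709 gene rows in the count table). The libraries were made from first molars of C57BL/6 mice at postnatal day 7, labelled as tooth germ. There were 3 wild-type (WT) libraries and 3 from littermates of genotype Gpr115-/- (Gpr115-KO), targeted in the gene of an adhesion G protein-coupled receptor now named Adgrf4. The labels name no Cre driver, do not say which part of the receptor gene was deleted, and do not say whether a library held 1 animal or several. P-values therefore measure the spread between these libraries, which may be technical.

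Odontoblasts, the pulp cells that line the dentin, secrete collagen and SIBLING proteins into predentin, where the proteins bind calcium and collagen and take part in mineral deposition. DSPP is cut into dentin sialoprotein and dentin phosphoprotein and is the family member most typical of odontoblasts. DMP1 and MEPE are typical of osteocytes, bone sialoprotein (Ibsp) of osteoblasts and cementoblasts, and osteopontin (Spp1) of osteoblasts, osteoclasts, macrophages and several epithelia. Fam20C phosphorylates the family at serines that stand before an acidic residue, and an arginine-glycine-aspartate motif lets the proteins bind integrins on cells.

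The 5 genes lay on the plus strand of chromosome 5 within 270 kb (GRCm38, GENCODE vM21). In order they were Dspp (ENSMUSG00000053268, chr5:104170712-104180127), Dmp1 (ENSMUSG00000029307, chr5:104202613-104214102), Ibsp (ENSMUSG00000029306, chr5:104299171-104311469), Mepe (ENSMUSG00000053863, chr5:104325329-104338611) and Spp1 (ENSMUSG00000029304, chr5:104435118-104441050). None shared 95% identity over 150 nt or more with the transcript of another gene. Spp1 alone was overlapped by another gene model, Gm42793, which had at most 3 counts in any library.

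The shared feature that gives the family its name was found in the coding sequence of all 5 genes. Each held 1 in-frame run of codons for arginine, glycine and aspartate, a run present in 7.44% of the 20956 protein-coding genes of 100 codons or more. The coding stretches around it are shown 5′ to 3′ with the 9 bases of the motif in capitals, from GENCODE vM21 transcripts.
Dspp, codon 479 of 945, exon 5 of 5, chr5:104177195-104177227: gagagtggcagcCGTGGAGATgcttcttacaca
Dmp1, codon 350 of 503, exon 6 of 6, chr5:104212495-104212527: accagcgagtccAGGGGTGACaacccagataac
Ibsp, codon 293 of 324, exon 7 of 7, chr5:104310463-104310495: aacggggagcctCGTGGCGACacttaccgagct
Mepe, codon 183 of 441, exon 3 of 3, chr5:104337530-104337562: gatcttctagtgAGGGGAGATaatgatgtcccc
Spp1, codon 145 of 295, exon 7 of 8, chr5:104439469-104439501: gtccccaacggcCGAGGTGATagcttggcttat
The 9 bases of the motif were spelled differently in each of the 5 genes.

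Codons for serine, aspartate and glutamate made up 61.7% of the Dspp coding sequence, 50.9% of Dmp1, 40.3% of Spp1, 32.1% of Ibsp and 24.7% of Mepe, against a median of 19.2% over all protein-coding genes. One form of the Fam20C pattern, a serine codon with a glutamate codon 2 places on, was densest in Dmp1, with 40 occurrences or 7.95 per 100 codons. Spp1 had 20 (6.78 per 100), Ibsp 8 (2.47), Mepe 7 (1.59) and Dspp 10 (1.06), with a median of 0.45 per 100 over all genes. An aspartate codon in that place, as in the Dspp repeat below, was not counted. The counts therefore do not rank the proteins by phosphorylation. Dspp owes its composition to a repeat of aspartate and serine codons in its last exon, which encodes dentin phosphoprotein. The 90 coding bases whose short stretches recurred most often in the transcript, from codon 843 (chr5:104178299-104178388, plus strand), hold 20 serine codons, in capitals, and 10 aspartate codons.
Dspp repeat: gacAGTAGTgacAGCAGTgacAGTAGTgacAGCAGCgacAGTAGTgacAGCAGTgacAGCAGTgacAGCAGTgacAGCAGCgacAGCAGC
Of all 50-base windows of the Dspp transcript 2.51% occurred more than once in it, and of the 100-base windows 0%. No 50-base window recurred in the other 4 genes. How reads that fit more than 1 place were counted was not given in the sources used here.

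Depth ran from 8317302 to 11122821 counts per library. Levels are given as CPM, counts relative to library sizes scaled by TMM. Adgrf4, the targeted gene, had 62.5 to 67.5 CPM in the WT libraries, against 39.2, 20.6 and 27.5 CPM in those of Gpr115-KO replicates 1 to 3, a log2 difference of −1.18 (SE 0.21, edgeR adjusted p = 0.0887), and Gpr115-KO replicate 1 kept the most. Gpr115-KO replicate 2 held the most skeletal muscle RNA, with 8 marker genes summing to 198 CPM against 19.5 to 53.5 CPM elsewhere. The ameloblast markers Ambn and Amelx were abundant in every library, at 53962 to 140561 and 20767 to 46000 CPM, so the libraries hold tooth germ.

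No SIBLING gene was called between the genotypes, and the estimates were wide. Of the 5 genes 4 passed the count filter and 0 of these 4 were called, where edgeR's quasi-likelihood test called 0.150% of all 16011 genes (adjusted p under 0.05). Of the 4 genes 0 had an unadjusted p under 0.05, against 12.3% of all tested genes, so that this count is near the background. The unadjusted value did go under 0.05 for Ibsp without Gpr115-KO replicate 1 (edgeR adjusted p = 0.344) and for Spp1 without Gpr115-KO replicate 3 (edgeR adjusted p = 0.176). With all libraries DESeq2 and limma-voom called none of the 4 either. The libraries of both genotypes overlapped in all 5 genes, counting Mepe, which was not tested. Over all tested genes the share without overlap was 17.5%, too low for this to set 5 genes apart. The spread between libraries of one genotype differed from gene to gene.

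**Figure D1:**
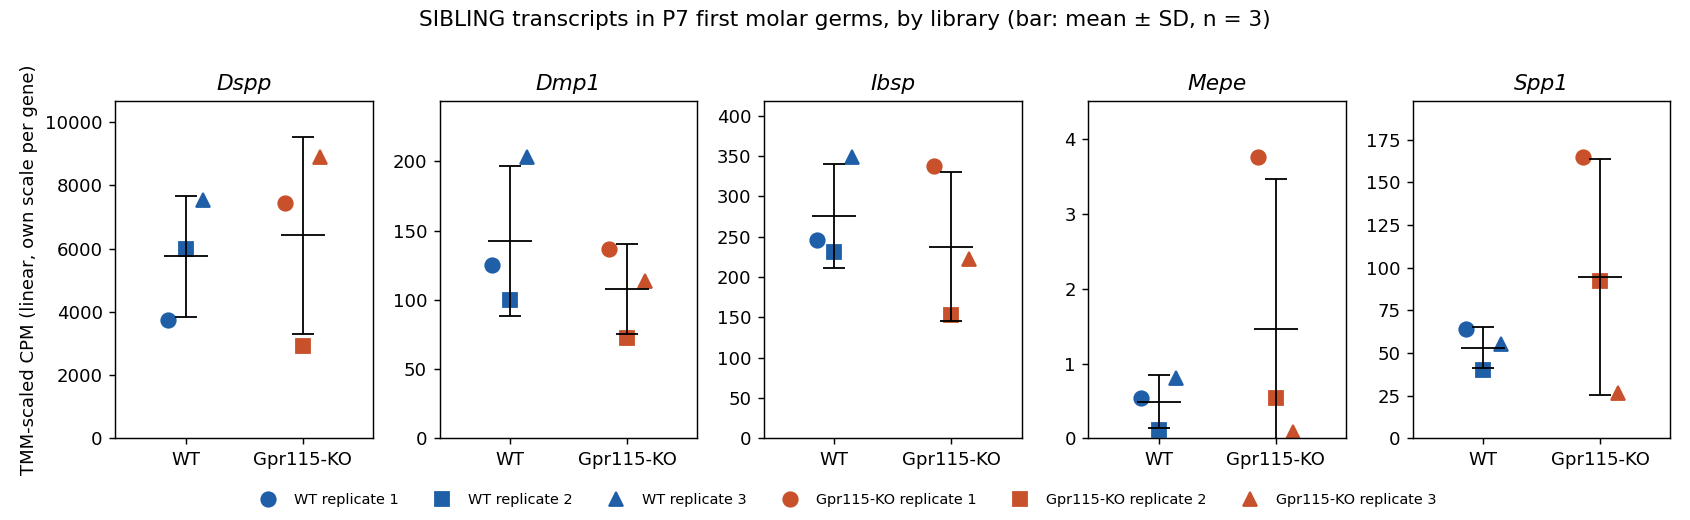
TMM-scaled CPM of the 5 SIBLING genes (vertical axes, linear, a separate scale for each gene) in WT and Gpr115-KO; each point is 1 library, shaped by replicate number, and bars are the mean ± SD (n = 3; the lower bar of Mepe in Gpr115-KO runs below 0 and is not drawn there). The genotypes overlap in every gene, and Gpr115-KO replicate 1 stands highest for Mepe (3.76 CPM) and Spp1 (165 CPM).

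Dspp, the odontoblast phosphoprotein gene, had 3745, 5973 and 7542 CPM in WT replicates 1 to 3. In Gpr115-KO it had 7432, 2913 and 8899 CPM. The lowest and the highest library were both Gpr115-KO, and WT lay between them. The WT mean was 5754 ± 1908 CPM and the Gpr115-KO mean 6415 ± 3120 CPM (SD, n = 3), with log2 fold change 0.16 (SE 0.40, edgeR adjusted p = 0.906). The sign turned without WT replicate 1 (−0.07) or without Gpr115-KO replicate 3 (−0.15). In bulk RNA fewer odontoblasts and less Dspp RNA per odontoblast cannot be told apart. Dspp ranked between 8 and 21 among all genes by CPM in the 6 libraries.

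Dmp1, which encodes a matrix protein of odontoblasts and osteocytes, had 125, 99.9 and 203 CPM in WT. Its Gpr115-KO libraries had 137, 72.6 and 114 CPM. WT replicate 3 was the highest library and Gpr115-KO replicate 2 the lowest. On the log2 scale Gpr115-KO differed by −0.41 (SE 0.30, edgeR adjusted p = 0.617), and by −0.06 without WT replicate 3.

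Ibsp, which encodes bone sialoprotein, had 246, 231 and 349 CPM in the WT libraries, against 337, 153 and 223 CPM in those of Gpr115-KO. WT replicate 3 and Gpr115-KO replicate 1 were high and nearly level, and Gpr115-KO replicate 2 was again the lowest. The log2 difference came to −0.21 (SE 0.28, edgeR adjusted p = 0.799). It went to −0.55 without Gpr115-KO replicate 1 (adjusted p = 0.344) and to 0.02 without Gpr115-KO replicate 2.

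Mepe, which encodes a phosphoglycoprotein of osteocytes and odontoblasts, was close to the limit of detection and failed the count filter. Its counts were 6, 1 and 8 in the WT libraries, against 33, 5 and 1 in those of Gpr115-KO. The exact 95% Poisson interval of the 33 counts in Gpr115-KO replicate 1 was 22.7 to 46.3, above the upper bound of 15.8 for the 8 counts of WT replicate 3, counting error only. The other Gpr115-KO libraries lay within the WT range or just under it, at 0.534 and 0.0915 CPM against 0.114 to 0.813 CPM. Mean log2 CPM was higher in Gpr115-KO by 0.62, less than the SD of 2.17 within a genotype. Tested with no count filter, Mepe gave a fitted log2 difference of 1.49 (SE 0.79, edgeR adjusted p = 0.536).

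Spp1, which encodes osteopontin, had 64.1, 40.1 and 55.6 CPM in WT. In Gpr115-KO it had 165, 92.5 and 26.9 CPM. Gpr115-KO replicates 1 and 2 were above every WT library and replicate 3 was below every one. The SD was 12.2 CPM in the WT libraries, against 69.1 CPM in those of Gpr115-KO (n = 3), around means of 53.3 and 94.8 CPM respectively. The log2 difference came to 0.83 (SE 0.64, edgeR adjusted p = 0.655), and 1.27 without Gpr115-KO replicate 3 (SE 0.27, edgeR adjusted p = 0.176) against 0.16 without Gpr115-KO replicate 1. Osteopontin was thus the family member with the widest range among the 4 tested, 6.14 times from the lowest to the highest library.

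Spread within a genotype was wide for all 4 tested genes. The SD of log2(CPM + 1) within a genotype was 0.96 for Spp1, 0.71 for Dspp, 0.49 for Dmp1 and 0.46 for Ibsp. The median was 0.22 over the 8746 genes with a mean of at least 10 CPM. Of these genes 99.3% had a smaller SD than Spp1, 98.5% a smaller one than Dspp, 94.4% than Dmp1 and 92.6% than Ibsp.

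Divided by exonic length, the order of the levels was the same at its top and bottom in every library. Dspp led with 845, 1348 and 1702 CPM per kb in WT and 1677, 657 and 2008 CPM per kb in Gpr115-KO. Ibsp followed with 74.2 to 169 CPM per kb over the 6 libraries. Dmp1 and Spp1 swapped places between libraries. Dmp1 had more in the 3 WT libraries (45.2, 36.1 and 73.5 CPM per kb against 38.9, 24.3 and 33.7 for Spp1) and in Gpr115-KO replicate 3 (41.2 against 16.3). Spp1 had more in Gpr115-KO replicate 1 (100.1 against 49.5) and replicate 2 (56.1 against 26.3). Mepe was last with 0.0544 to 2.24 CPM per kb. The ranges of Ibsp and Spp1, and those of Dmp1 and Spp1, overlapped, while Dspp and Mepe stood clear of the rest.

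The libraries sorted the family into unlike patterns. Likeness was measured as the root mean square difference of log2(CPM + 1) over the 6 libraries, after each gene was centred on its own mean. Dmp1 and Ibsp were the closest pair at 0.17, with a ratio of Ibsp to Dmp1 counts between 1.72 and 2.46 in all libraries. Mepe and Spp1 were next at 0.39, and both peaked in Gpr115-KO replicate 1. Mepe had 1 to 33 counts and was under 1 CPM in every library but that one, where adding 1 flattens differences. Its distances therefore rest largely on 1 library. In Gpr115-KO replicate 2 Spp1 was above its own mean (0.56) and Mepe below (−0.15). Dspp lay 0.43 from Ibsp and 0.46 from Dmp1. Dspp and Spp1 were the farthest apart at 1.15. Gpr115-KO replicate 3 had the most Dspp and the least Spp1 of the 6 libraries, and Gpr115-KO replicate 2 the least Dspp and the second most Spp1. These are descriptions of 6 libraries that share depth scaling, and no test was made of them.

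The ratio of Dspp to the other SIBLING transcripts within a library needs no scaling between libraries. Dspp had 15.2, 25.8 and 21.6 counts for each Ibsp count in WT. The Gpr115-KO libraries had 22.0, 19.0 and 39.9. Gpr115-KO replicate 3 was the highest and WT replicate 1 the lowest, and the other 4 libraries were mixed. The log2 ratio was 4.35 ± 0.39 in WT and 4.68 ± 0.57 in Gpr115-KO (SD, n = 3; exact two-sided permutation p = 0.5). For Dspp to Dmp1 the counts ratio was 30.0, 59.8 and 37.1 in the WT libraries, against 54.4, 40.1 and 78.1 in those of Gpr115-KO (exact permutation p = 0.4). For Dspp to Spp1 it was 58.4, 149 and 136 in WT. In Gpr115-KO it was 45.0, 31.5 and 331, so this genotype held both ends of the range (exact permutation p = 0.8). The Dspp to Mepe ratio (exact permutation p = 0.8) rests on 1 count of Mepe in WT replicate 2 and in Gpr115-KO replicate 3. Of these 4 ratios each had an adjusted p of 0.8, and 3 libraries against 3 cannot give a p below 0.1.

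**Figure D2:**
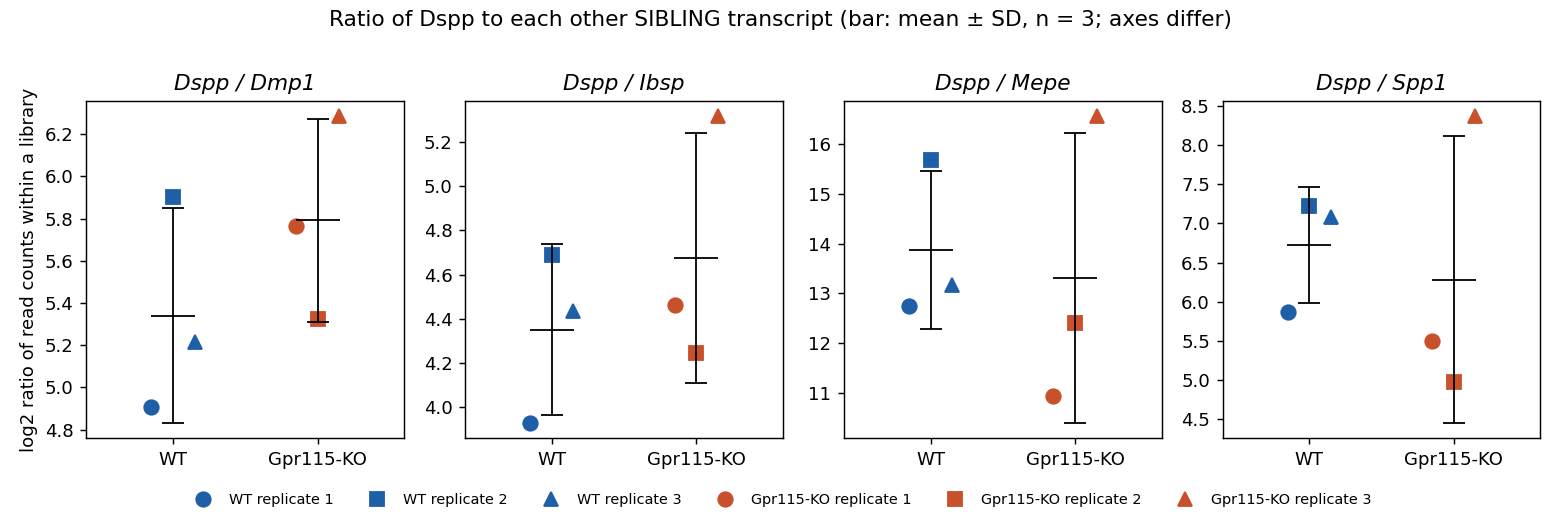
Log2 ratio of Dspp read counts to those of each other SIBLING gene within a library (vertical axes, not starting at 0 and different in each panel); points are libraries shaped by replicate number, bars the mean ± SD (n = 3). The genotypes overlap in all 4 ratios, and Gpr115-KO replicate 3 is highest in each, at 39.9 Dspp counts per Ibsp count and 331 per Spp1 count.

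Genes most like each family member were named by the same measure among genes with a mean of at least 10 CPM. Nearest to Dspp were Ablim3 (0.12), which encodes an actin-binding LIM protein, Cyfip2 (0.14), Loxl4 (0.14), a lysyl oxidase gene of matrix cross-linking, Cd40 (0.16) and Enpp1 (0.16), whose product makes the mineralization inhibitor pyrophosphate. Ablim3 had 21.0, 33.3 and 33.6 CPM in the WT libraries, against 35.7, 13.8 and 45.4 CPM in those of Gpr115-KO, the same high and low libraries as Dspp. Nearest to Dmp1 were Cdk14, Sall1, Sema3e, Gucy1a3 and Adamts2 (0.18 to 0.19). Nearest to Ibsp were Slc7a11, Pigg, Mink1, Adamts2 and Susd6 (0.13 to 0.14). Adamts2, which encodes the enzyme that trims the amino end of procollagens, was thus near both genes.

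Mepe and Spp1 had less close partners, and those of Mepe rest on 1 to 33 counts per library. Krt6a, a keratin of stratified epithelium, and Ppl, which encodes the cornified envelope protein periplakin, were the 2 nearest to Mepe (0.33 each) and among the 3 nearest to Spp1 (0.42 and 0.41). Ppl had 20.0, 11.3 and 15.9 CPM in the WT libraries, against 33.7, 12.4 and 6.77 CPM in those of Gpr115-KO. Slc26a1, Lgals3 and Wdr72 (0.36 to 0.37) followed for Mepe, and Grasp, Cap1 and Trim29 (0.41 to 0.47) for Spp1. A list of 14 keratinizing epithelium genes, chosen after these values were seen, summed to 195, 80.9 and 161 CPM in WT. In Gpr115-KO it summed to 348, 90.4 and 84.6 CPM. The list holds Krt6a, Ppl and Trim29, named above for their likeness, so its likeness to Mepe and Spp1 was partly built in. Its highest library was the one in which Mepe and Spp1 peaked, but Gpr115-KO replicate 2, second for Spp1, was among the low ones. Krt4, an oral epithelial keratin, had 47.5, 2.16 and 33.7 CPM in the WT libraries against 113, 2.99 and 3.57 CPM. Ivl, a cornified envelope gene of the list, had at most 0.107 CPM anywhere. The part of this epithelium in the Mepe and Spp1 values was not tested.

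Marker lists of the cells that make SIBLING proteins were compared by library. The 9 odontoblast genes summed to 1013 to 1250 CPM in the WT libraries, against 955 to 1147 CPM in those of Gpr115-KO. Most of each sum was Dlx3 (331 to 487 CPM) and Gsn (243 to 441 CPM), both lowest in Gpr115-KO replicate 2. Smpd3 (45.9 CPM) and Sall1 (14.7 CPM) were also lowest there, whereas Nes (163 CPM), Slc13a5 (81.8 CPM) and Wnt6 (39.1 CPM) were highest there. The sum therefore does not stand for the list as a whole. Of the 9 genes 6 lay above a log2 fold change of 0, the median was 0.19 against 0.01 over all tested genes, and 0 were called. Wnt10a, a Wnt ligand of odontoblasts, had 15.7, 22.7 and 23.4 CPM in the WT libraries, against 27.5, 30.1 and 30.1 CPM in those of Gpr115-KO (log2 fold change 0.51, SE 0.19, edgeR adjusted p = 0.311). The genotypes did not overlap in Wnt10a and did in Dspp. Wnt10a was the 1 gene of these 9 without overlap, against 17.5% of all tested genes. Wnt6 had a log2 fold change of 0.46 (SE 0.20). The 3 genes below 0 were Sall1 (−0.35, SE 0.26), Dlx3 (−0.25, SE 0.17) and Gsn (−0.11, SE 0.22). Gpr115-KO replicate 2, the library with the least Dspp, was level with replicate 3 for Wnt10a.

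The 10 osteoblast genes summed to 1539 to 2316 CPM in the WT libraries, against 1492 to 2511 CPM in those of Gpr115-KO. Of their log2 fold changes 4 lay above 0 and 6 below, with a median of −0.08 and 0 called. Runx2, the transcription factor that starts osteoblast and odontoblast differentiation, had 185, 306 and 217 CPM in the WT libraries, against 168, 151 and 175 CPM in those of Gpr115-KO. Its groups did not overlap, and its log2 fold change of −0.52 (SE 0.20) was not called (edgeR adjusted p = 0.333). Runx2 was the 1 gene of these 10 without overlap, against 17.5% of all tested genes. Ifitm5, which marks osteoblasts, had 4.60 to 8.20 CPM over the 6 libraries and Sost, which marks osteocytes, 0.181 to 1.93 CPM. Of 8 osteocyte genes 6 were tested and 0 called, 3 above 0 and 3 below (median 0.08), from Irx5 at 0.44 (SE 0.27) and Pdpn at 0.23 (SE 0.16) to Tnfrsf11b at −0.23 (SE 0.24). Fgf23, a phosphate hormone of osteocytes that is raised when Dmp1 is lost, had 5.46 CPM in WT replicate 2 and at most 0.0907 CPM in the others.

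Osteoclast and macrophage genes were followed because both cell types express Spp1. The 10 osteoclast genes summed to 64.2, 57.5 and 53.0 CPM in the WT libraries and to 90.5, 86.7 and 68.8 CPM in Gpr115-KO. The sums did not overlap, but this rested on Ctsk: without it they were 33.0, 30.5 and 31.6 CPM against 44.8, 43.4 and 32.1 CPM, and Gpr115-KO replicate 3 lay inside the WT range. All 6 tested members had log2 fold changes above 0 (median 0.50), and 0 were called. Ctsk, the bone-resorbing protease cathepsin K, had 31.2, 27.1 and 21.3 CPM in the WT libraries, against 45.7, 43.3 and 36.7 CPM in those of Gpr115-KO (0.66, SE 0.18, edgeR adjusted p = 0.233). Mmp9 had 0.61 (SE 0.32). Acp5, Ctsk, Mmp9, Oscar and Atp6v0d2 were above every WT library in Gpr115-KO replicates 1 and 2, as Spp1 was. Tnfrsf11a, Itgb3, Calcr, Ocstamp and Dcstamp were not above WT in both. Itgb3 was lowest in Gpr115-KO replicate 1 (1.25 CPM) and Tnfrsf11a in replicate 2 (2.03 CPM). In Gpr115-KO replicate 3, lowest in Spp1, Acp5 (16.8 CPM), Calcr (0.183), Ocstamp (0) and Dcstamp (0) were below every WT library. Tnfrsf11a (4.12 CPM), Itgb3 (3.48) and Oscar (1.37) went the other way and were highest there of all libraries, and Ctsk was above every WT library. The defining genes Calcr and Ocstamp had under 1 CPM in every library, and Calcr, Ocstamp and Dcstamp, none of them tested, had lower means in Gpr115-KO. The 9 macrophage genes summed to 110 to 124 CPM in the WT libraries, against 107 to 162 CPM in those of Gpr115-KO, with 0 called, and Gpr115-KO replicate 3 had the most. C1qa, a complement subunit, stood at a log2 difference of 0.82 (SE 0.22, edgeR adjusted p = 0.223) and Aif1 0.54 (SE 0.32). Of the 9 genes 8 lay above 0 and 1 below, with a median of only 0.10. C1qb and C1qc stood at 0.33 (SE 0.25) and 0.10 (SE 0.26), and Csf1r at −0.13 (SE 0.18). The part of either cell type in the Spp1 values was not tested.

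Other tissue in the germs moved between libraries as well. The ameloblast list summed to 113097 to 146136 CPM in the WT libraries and to 126602, 203638 and 96427 CPM in Gpr115-KO. Gpr115-KO replicate 2, lowest in Dspp, Dmp1 and Ibsp, had the highest sum, which Ambn and Amelx carried. Without these genes it was 17078 CPM there, below the 18216 to 19848 CPM of WT. Gpr115-KO replicate 1 then had the highest sum (21191 CPM) and replicate 3 the lowest (13810 CPM). Odam was lower in Gpr115-KO replicate 2 (1473 CPM) than in any other library (4583 to 7942 CPM). Amelx and Mmp20, the enamel matrix protein gene and its protease, had log2 fold changes of 0.52 (SE 0.30) and 0.39 (SE 0.23). Of the 9 ameloblast genes 5 lay above 0 and 4 below (median 0.04), with Odam at −0.29 (SE 0.49) and Enam at −0.14 (SE 0.26), and 0 were called. The dental pulp and follicle list had 0 of 9 called, where Barx1 stood at 0.65 (SE 0.29) and Sox9 at −0.45 (SE 0.20), both transcription factors. Of the muscle genes 6 of 8 were tested and 0 called, with Mylpf at 1.48 (SE 0.71) and Tnni2 at 1.04 (SE 0.67). Of the red blood cell genes 6 of 7 were tested and 0 called, with Slc4a1 at 1.47 (SE 0.36) and Hbb-bt at 1.45 (SE 0.37), and the list summed to 305 and 396 CPM in Gpr115-KO replicates 1 and 2 against 139 to 159 CPM in the other libraries. Their part in the SIBLING values was not tested.

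**Figure D3:**
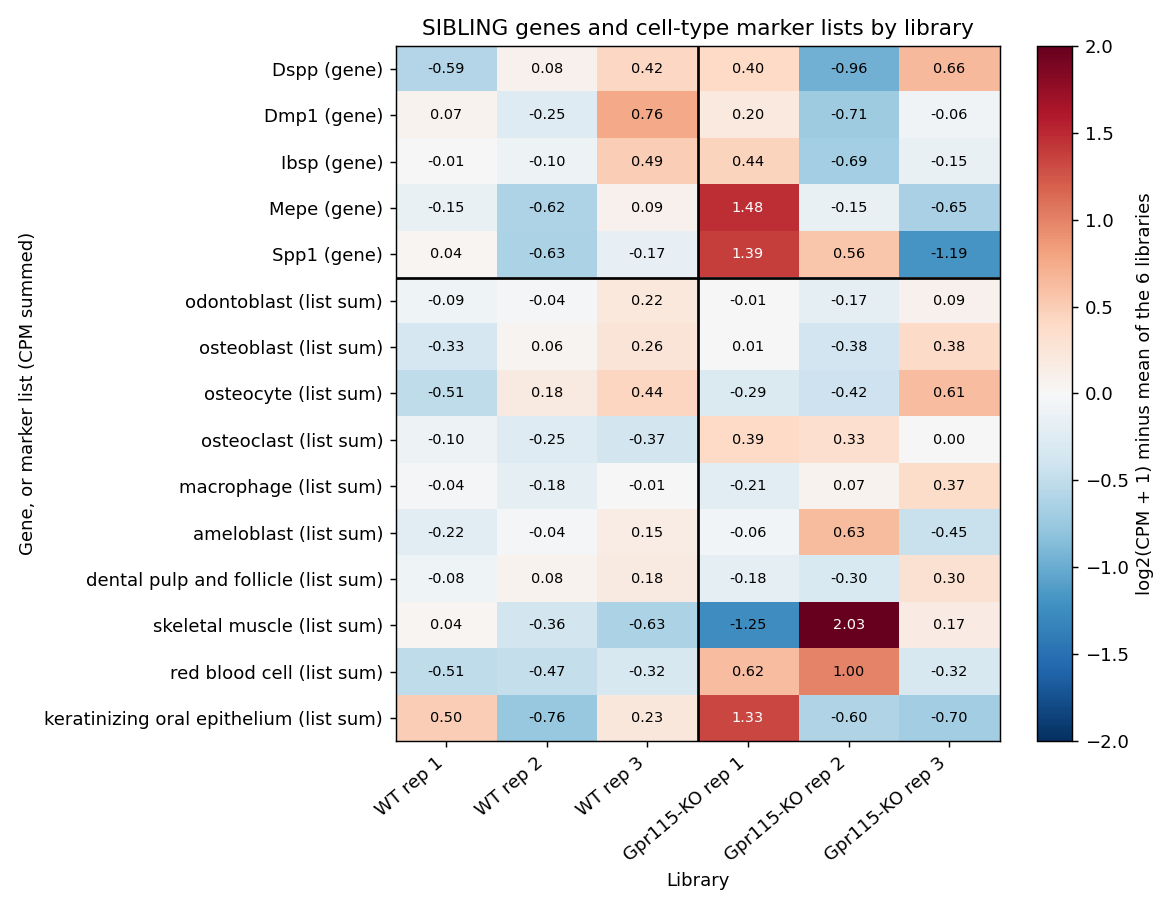
Log2(CPM + 1) minus its mean over the 6 libraries (colour and number in each cell) for the 5 SIBLING genes and for the summed CPM of each marker list (rows), by library (columns; the vertical line divides WT from Gpr115-KO). Dspp, Dmp1 and Ibsp are lowest in Gpr115-KO replicate 2 (−0.96, −0.71 and −0.69). There the muscle list and the ameloblast sum, carried by Ambn and Amelx, are highest. Mepe and Spp1 are highest in Gpr115-KO replicate 1 (1.48 and 1.39), where the keratinizing list is highest (1.33). That list was chosen after these values were seen. It holds genes named for their likeness to Mepe and Spp1, so the shared peak was partly built in. Most of the odontoblast sum is Dlx3 and Gsn, both lowest in Gpr115-KO replicate 2.

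Genes that act on the SIBLING proteins were taken by role. The enzymes that cut or phosphorylate them (10 genes, all tested) had 5 log2 fold changes above 0 and 5 below, a median of 0.05 and 0 calls. Bmp1, the protease that cleaves both DSPP and DMP1, had 28.7, 34.7 and 43.2 CPM in the WT libraries, against 43.4, 48.6 and 49.9 CPM in those of Gpr115-KO (0.42, SE 0.18, edgeR adjusted p = 0.371). Furin, a proprotein convertase, had −0.33 (SE 0.16, edgeR adjusted p = 0.435), with every Gpr115-KO library below WT. The genotypes did not overlap in 2 of these 10 genes, against 17.5% of all tested genes. Phex, whose product degrades the acidic mineral-binding peptide of MEPE and osteopontin, had 374, 663 and 798 CPM in the WT libraries, against 425, 420 and 898 CPM in those of Gpr115-KO. Like Dspp it was highest in Gpr115-KO replicate 3. Fam20c, the kinase, had 42.7 to 61.0 CPM in the WT libraries, against 54.8, 90.5 and 56.5 CPM in those of Gpr115-KO, with its highest level in the library lowest in Dspp.

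Receptors of the family were the integrin subunits and Cd44 (10 genes, all tested), with 5 above 0, 5 below, a median of −0.09 and 0 calls. Itgb6, the epithelial partner of the alpha v subunit, had −0.43 (SE 0.21) and Itga4 −0.40 (SE 0.20). Cd44, a hyaluronan receptor that osteopontin also binds, had 437, 448 and 477 CPM in the WT libraries, against 406, 411 and 336 CPM in those of Gpr115-KO, without overlap (−0.24, SE 0.17, edgeR adjusted p = 0.591). Cd44 was the 1 gene of these 10 without overlap, against 17.5% of all tested genes. Itgb3, the osteoclast partner of alpha v, had 1.25 to 3.48 CPM.

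Among the 8 mineralization enzymes and transporters 7 were tested, with 5 log2 fold changes above 0, 2 below, a median of 0.14 and 0 calls. The 2 below 0 were Slc20a1 and Alpl. Slc20a1, a sodium-phosphate cotransporter, had 787, 584 and 299 CPM in the WT libraries, against 373, 126 and 209 CPM in those of Gpr115-KO (−1.24, SE 0.46, edgeR adjusted p = 0.347). Alpl, the alkaline phosphatase that frees phosphate from pyrophosphate, had −0.17 (SE 0.17). Phospho1, a matrix vesicle phosphatase, had under 0.3 CPM everywhere. The 13 other matrix genes had a median of 0.12 and 0 calls, with Serpinh1, a collagen chaperone, at −0.35 (SE 0.23) and Mgp, a mineralization inhibitor, at 0.62 (SE 0.41). Col1a1, the main collagen of dentin and bone, had 30636, 55274 and 69001 CPM in the WT libraries, against 48211, 35512 and 58103 CPM in those of Gpr115-KO. Bglap, which encodes osteocalcin, had 506, 893 and 1224 CPM in the WT libraries, against 1008, 760 and 1350 CPM in those of Gpr115-KO. In both, as in Dspp, replicate 1 was the lowest of the WT libraries.

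The 10 transcription factors of dentin and bone had 4 log2 fold changes above 0, 6 below, a median of −0.16 and 0 calls. Besides Runx2, Runx1 was below the WT range in all Gpr115-KO libraries, at 253, 276 and 286 CPM against 235, 184 and 192 CPM (−0.42, SE 0.16, edgeR adjusted p = 0.345). Msx2, a homeobox factor, did not overlap either (0.28, SE 0.16), with 110 to 116 CPM in the WT libraries, against 117 to 159 CPM in those of Gpr115-KO. Sp7 and Nfic, factors needed for odontoblast maturation, stood at −0.07 (SE 0.25) and 0.01 (SE 0.19). The genotypes did not overlap in 3 of these 10 factors, against 17.5% of all tested genes.

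Promoters were compared because Dmp1 and Ibsp were the closest pair and Mepe and Spp1 both peaked in Gpr115-KO replicate 1. RefSeq promoter sequences (GRCm38.p6) were at hand for 4 of the 5 genes, Dspp being without an entry. The reversed CCAAT box, read as ATTGG, was found in all 4 within the 250 bases before a start site, and in either direction in 33.8% of 32851 promoters. The 30 bases around it, plus strand, 5′ to 3′, with the box in capitals, are shown for the site nearest a start; Dmp1 has a second start site with a box of its own.
Dmp1, 57 bases before the start, chr5:104202548-104202577: agcctgaggctcATTGGctctgaggagctg
Ibsp, 54 bases before the start, chr5:104299221-104299250: gccacagctgtgATTGGctgttgagaggcg
Mepe, 21 bases before the start, chr5:104325296-104325325: tgaaccatgctgATTGGacatcgggggctc
Spp1, 46 bases before the start, chr5:104435053-104435082: ctccacctcctgATTGGtggagactgtctg
The core letters bound by Runx factors, ACCACA on either strand, were found in the promoters of Dmp1, Mepe and Spp1 and in 14.0% of promoters. TATAAA was found on either strand in Ibsp, Mepe and Spp1 and in 12.4% of promoters. TGACGT, the core of the cyclic AMP response element, was found in Ibsp and in 6.47% of promoters, and the E-box CACCTG in Dmp1 and Spp1 and in 17.2%, both strands read. These matches describe the letters only and do not divide the genes as their levels did.

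Neighbouring genes were looked at because the family is a chromosomal cluster. Of 7 other protein-coding genes that begin within 300 kb of it 5 were tested and 0 called, with log2 fold changes from −0.02 (Pkd2, a calcium channel gene) to 0.72 (Gm17660). Nudt9 and BC005561 had 0.17 (SE 0.17) and 0.55 (SE 0.36), and Hsd17b11 and Hsd17b13 did not pass the count filter. Sparcl1, a matricellular gene next to Dspp, had 178, 200 and 236 CPM in the WT libraries, against 239, 123 and 255 CPM in those of Gpr115-KO (0.01, SE 0.26). Its highest and lowest libraries were those of Dspp. Pkd2, next to Spp1, kept between 11.8 and 13.9 CPM in all libraries, while Spp1 ran from 26.9 to 165 CPM.

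**Figure D4:**
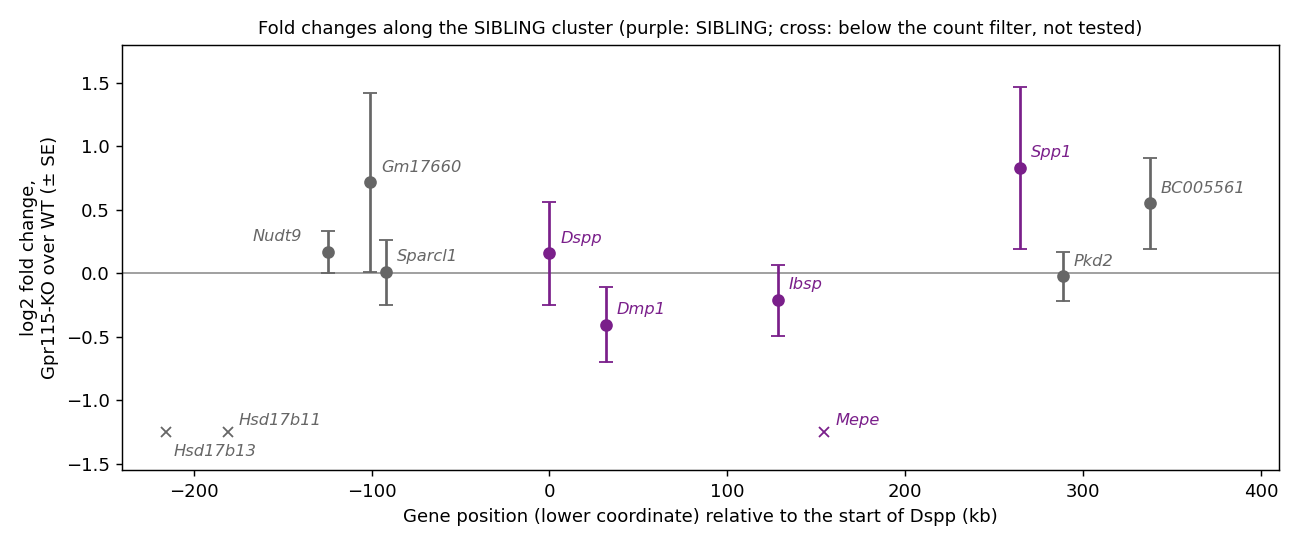
Log2 fold change of Gpr115-KO over WT (vertical axis, points ± SE from edgeR) for the SIBLING genes and the protein-coding genes around them, against the distance of each gene's lower coordinate from the start of Dspp in kb (horizontal axis); crosses at the bottom mark genes that were not tested and carry no value. No gene of the cluster was called, and Spp1 (0.83, SE 0.64) and Dmp1 (−0.41, SE 0.30) mark the ends of the SIBLING range.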

How the data were processed

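The authors deposited raw counts per gene (48709 gene rows; 15 other rows with at most 8 counts per library were left out) and a table of normalized values. The authors deposited this signal under the name CPM_TMM, counts over TMM-scaled library sizes. Divided by the smallest value above 0 in its column, 100% of the signal came out as whole reads (within 0.01 reads), equal to the counts. STAR 2.5.2a, edgeR, limma, DESeq2 and GRCm38 are listed by the submitters' processing notes. The counter was not given in the sources used here, and per the labels' protocols the Nextera XT kit was used, which does not mark strand.

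Counts were tested with edgeR 4.0.16 (R 4.3.3): filterByExpr (minimum count 10, total 15), TMM, robust quasi-likelihood F test on genotype, two-sided, Benjamini-Hochberg over 16011 genes, called at 0.05. The SE is the absolute log2 fold change over the square root of F. CPM carry no pseudocount, and likeness and spread use log2(CPM + 1). Ratios used exact permutation. Libraries were compared by chi-square (14.4 to 77.5 per degree of freedom, so none was a copy). The test was tried on simulated data.

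Members and lists were chosen with earlier results of these data known. Named were the 5 genes, up to 4 called genes of each list (or the 2 of smallest p), the 5 genes most like each member, and neighbours within 300 kb. One gene that this rule names is not reported here. Further genes (among them Phex, Fam20c, Col1a1, Cd44, Msx2, Krt4, Ivl, Bglap, Odam, Enam, Tnfrsf11b and Acp5) and the list sums without single genes were chosen after their values were seen. Alternatives were DESeq2 1.42.0 size factors and Wald test, library totals, 2 other filters, limma 3.58.1 (voom, and trend with a pseudocount of 1 or 0.1 on the normalized values), no robust shrinkage, a replicate block, a length trend offset, other thresholds, each library left out and, added later, the recovered reads. Copies were sought with blastn 2.17.0.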

Additional observations from a re-analysis of the deposited data

How the results depend on the processing

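No SIBLING gene was called higher or lower under any alternative, and adjusted p ran from 0.176 to 0.996. Of 73 alternative fold changes, among them those from recovered reads equal to the counts, 70 kept their sign. Dspp was −0.07 without WT replicate 1 and −0.15 without Gpr115-KO replicate 3, and Ibsp 0.023 without Gpr115-KO replicate 2. Leaving out each library in turn gave −0.15 to 0.51 for Dspp, −0.61 to −0.06 for Dmp1, −0.55 to 0.023 for Ibsp and 0.16 to 1.27 for Spp1. The log2 ratio differences ran from 0.20 to 0.73 (Dspp to Dmp1), 0.0040 to 0.54 (Ibsp), −2.19 to 0.62 (Mepe) and −1.49 to 0.21 (Spp1), turning sign for Mepe without WT replicate 2 (0.35) or Gpr115-KO replicate 1 (0.62) and for Spp1 without Gpr115-KO replicate 2 (0.21). Mepe was testable only with no count filter.

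Calls over all genes, 6 higher and 18 lower, moved to 135 and 365 with no count filter, 64 and 179 with DESeq2, 16 and 35 at a threshold of 0.1, 6 lower at 0.01 and 11 lower on library totals; the cause was not tested. With 1 library left out they ran from 5 to 10 higher (10 without WT replicate 2) and from 7 to 39 lower (9 without WT replicate 1, 7 without WT replicate 2, 39 without Gpr115-KO replicate 1). Recovered reads, added after the data were seen, gave the same 6 and 18, which is no separate check because they equal the counts. Same-numbered libraries deviated together with r = 0.26, 0.04 and −0.08, and not every library fitted its own number best. With 3 libraries per genotype these values cannot decide whether the numbers pair them. The replicate block gave 18 higher and 54 lower genes and no SIBLING call. Depth limits Mepe, with 1 to 33 counts.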
